A study of Rattus norvegicus with 16 samples.

Results

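The miR-221 and miR-222 cluster comprises 2 microRNAs (miRNAs), rno-miR-221 and rno-miR-222, which were taken by name among the 350 miRNAs on the Agilent Rat miRNA array and are read by 4 of its 938 probes. Total RNA of whole hippocampus from 16 male Sprague-Dawley rats was hybridised, 1 array a rat. Uninjured rats were either naïve (3 arrays, no treatment) or given a sham injury (2). The other rats had severe lateral fluid percussion, a model in which a pressure pulse on the dura causes traumatic brain injury. They received no drug (the TBI group, 3 arrays) or a compound that the labels name only PMI (3 arrays), JM6 (3) or E33 (2). Tissue was taken after 24 h in every group. Doses, times of dosing and the rats' age are not given in the sources used here, and no label names a vehicle-treated group. The rats of a group are described as biological samples.

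miRNAs are short RNAs that guide the silencing complex to messenger RNAs, mainly by pairing of their seed with the target. In mammals miR-221 and miR-222 are made from 1 primary transcript of the X chromosome, and they share a seed. They are known for repressing the cell cycle inhibitors p27 (Cdkn1b) and p57 (Cdkn1c) and the receptor Kit, for their abundance in endothelium and vascular smooth muscle, and for the rise of their host transcript in cells stimulated through NF-kappaB.

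Both mature sequences are printed because the probes read mainly the parts in which they differ. The seed (bases 2 to 8) is in capitals.
rno-miR-221-3p: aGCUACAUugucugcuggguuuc
rno-miR-222-3p: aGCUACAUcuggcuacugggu
The first 8 bases are identical, and the longest run that the rest of both sequences has in common is 6 bases. Of the 693 mature rat miRNA names in the RefSeq table, only these 2 carry this seed. Both members matched that table. On its assembly, GRCr8, the mature sequences lie on the plus strand at chrX:6023246-6023268 (miR-221) and chrX:6022682-6022702 (miR-222). Their hairpins are 109 and 103 bases long with 458 bases between them.

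The 4 probes are shown because their lengths decide how much of each miRNA is paired, again 5′ to 3′.
miR-221, 19-base probe: gaaacccagcagacaatgt
miR-221, 20-base probe: gaaacccagcagacaatgta
miR-222, 13-base probe: acccagtagccag
miR-222, 14-base probe: acccagtagccaga
The miR-221 probes pair with bases 5 to 23 and 4 to 23 of their miRNA, and the miR-222 probes with bases 9 to 21 and 8 to 21. Each matched the mature sequence of 1 miRNA in the table. All 4 lie on chromosome X in the rn4 positions of the array design, at 14935686 to 14935703 and 14935685 to 14935703 for miR-221 and at 14935126 to 14935137 and 14935125 to 14935137 for miR-222, and each listed interval is 1 base shorter than its probe. No probe carries the name of a passenger strand of either miRNA.

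Each probe was printed in 10 spots on every array. The signal given here is the mean of the spots not called outliers, relative to a reference level of the same array and on the log2 scale. That level is the 75th percentile of the 284 probes that stood well above background on all 16 arrays, so a value of 0 is that percentile. The arrays came from 2 slides of 8, each scanned at 1 time. Slide 1 held the naïve and TBI arrays and 2 PMI arrays, and slide 2 held the sham, JM6 and E33 arrays and the remaining PMI array. Only arrays of the same slide were compared. The probes well above background numbered 293 to 463 an array, 0 spots were saturated, and 139 to 427 of 7000 spots were left out as outliers. The brain miRNAs miR-124, miR-9, miR-128 and miR-138 were well above background on 16 of 16 arrays. Of the markers of other tissues, miR-122 of liver and miR-133a and miR-206 of skeletal muscle were well above background on 0 arrays, miR-1 was on 1 and miR-133b on 15 (at most -3.25). Markers of oligodendrocytes (miR-219-5p and miR-338) and of choroid plexus (miR-204) were well above background on 16 of 16 arrays. So were those of endothelium (miR-126), smooth muscle (miR-143), leukocytes (miR-142-3p) and red cells (miR-451). The second marker of several of these lists was not: miR-145 of smooth muscle was on 7 and miR-211 of choroid plexus on 5, each with its median at the floor of the scale, the red cell miR-144 was on 12 and the myeloid miR-223 on 14.

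All 4 probes of miR-221 and miR-222 were well above background on 16 of 16 arrays, so both miRNAs were measured in every hippocampus. Mean intensity on the scanner's scale ran from 2075 to 4681 for the 20-base probe of miR-221 and from 384 to 1200 for the 14-base probe of miR-222. These are the brighter probe of each miRNA and carry the tests. Their intensities cannot be set against each other, because probes differ in their response.

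For miR-221 on slide 1, the log2 scaled signal of the naïve arrays was -0.27, -0.12 and 0.11, that of the TBI arrays 0.10, -0.24 and 0.09, and that of the PMI arrays -0.21 and 0.06. Every injured group spanned the middle of the naïve values. On slide 2 the sham arrays gave 0.28 and 0.21, the JM6 arrays 0.20, 0.31 and 0.32, the E33 arrays 0.24 and -0.05, and the PMI array 0.23. The second E33 array was the lowest of slide 2, and the other 7 lay close together. Group means ordered TBI (-0.02 ± 0.19 SD, n = 3), PMI (-0.08 ± 0.19, n = 2) and naïve (-0.09 ± 0.19, n = 3) on slide 1, and JM6 (0.28 ± 0.07, n = 3), sham (0.24 ± 0.05, n = 2), PMI (0.23, n = 1) and E33 (0.09 ± 0.20, n = 2) on slide 2. No neighbouring groups in either order differed beyond their spread.

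For miR-222 on slide 1, the naïve arrays gave -2.58, -2.31 and -2.15, the TBI arrays -2.17, -2.89 and -2.34, and the PMI arrays -2.65 and -2.23. The lowest value of the series was the second TBI array, and the ranges of the groups overlapped. On slide 2 the sham arrays gave -2.05 and -1.75, the JM6 arrays -1.86, -2.03 and -1.81, the E33 arrays -1.72 and -2.03, and the PMI array -1.84. Here the means of sham, JM6 and E33 lay within 0.03 of each other in log2. The order was naïve (-2.35 ± 0.22 SD, n = 3), PMI (-2.44 ± 0.30, n = 2) and TBI (-2.47 ± 0.37, n = 3) on slide 1, and PMI (-1.84, n = 1), E33 (-1.87 ± 0.22, n = 2), JM6 (-1.90 ± 0.12, n = 3) and sham (-1.90 ± 0.21, n = 2) on slide 2, again with no neighbours differing beyond their spread.

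**Figure D1:**
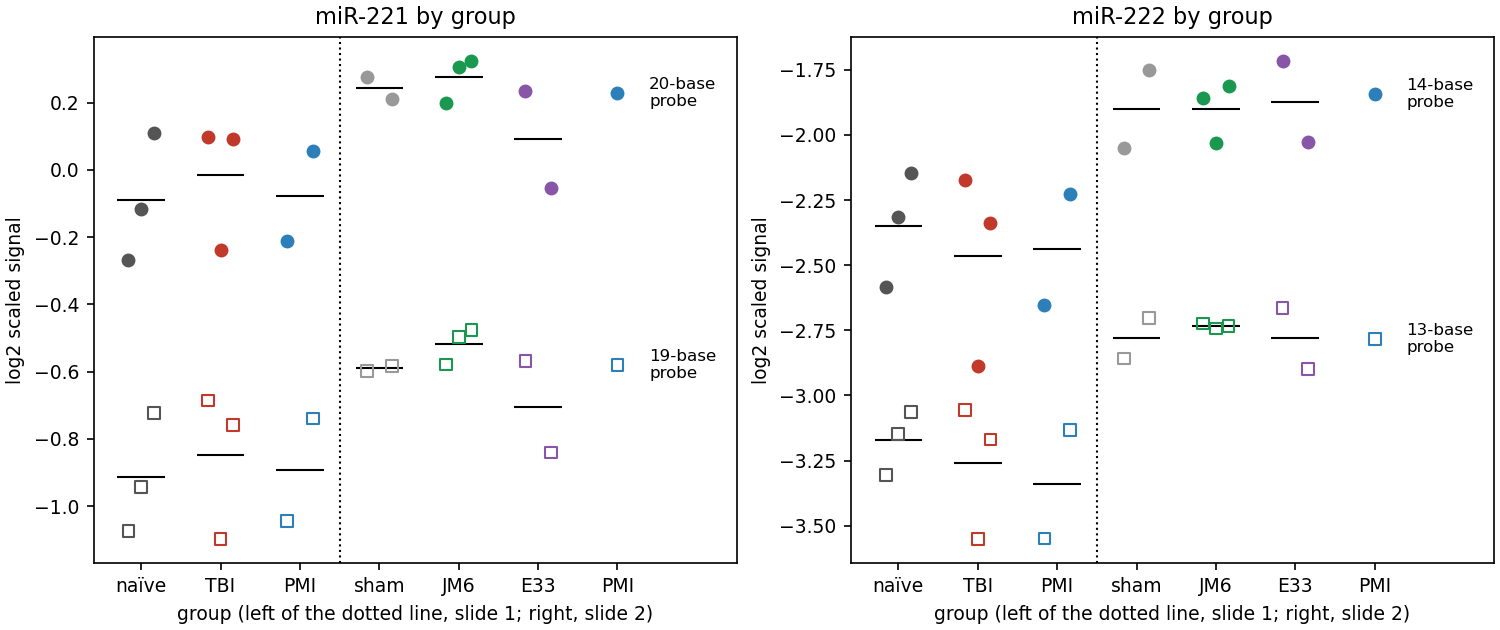
Log2 scaled signal of miR-221 (left) and miR-222 (right) on all 16 arrays, by group, with slide 1 left of the dotted line and slide 2 right of it. Filled circles are the brighter probe and open squares the other, each point is 1 array, and black bars are group means. For the brighter probe of miR-221 the bars lie between -0.09 and -0.02 on slide 1 and between 0.09 and 0.28 on slide 2.

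Over the arrays the dimmer probes followed the brighter ones, though the order of close group means changed. After the mean of each slide was taken out, the 19-base and 20-base probes of miR-221 correlated at 0.98 over the 16 arrays, and the 13-base and 14-base probes of miR-222 at 0.93, as a description of probes hybridised to the same RNA on the same arrays. The log2 gap between a pair of probes had an SD over the arrays of 0.03 for miR-221 and 0.09 for miR-222. Group means of the 19-base probe were TBI -0.85, PMI -0.89 and naïve -0.91 on slide 1. On slide 2 they were JM6 -0.52, PMI -0.58, sham -0.59 and E33 -0.70. Those of the 13-base probe were naïve -3.17, TBI -3.26 and PMI -3.34 on slide 1. On slide 2 they were JM6 -2.73, and -2.78 in each of E33, sham and PMI. Over all 16 arrays the 20-base miR-221 probe ranged over 0.59 in log2 and the 14-base miR-222 probe over 1.17, beside a median range of 0.66 for the 284 probes, and 40.5% and 86.3% of those probes had a smaller range.

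The wider range of miR-222 went with the slide and, only in part, with a set of dim spots. The dimmer probe of miR-222, which had no such spots, still ranged over 0.89 in log2. Of the 284 probes, 76.8% had a smaller range than that. With the median of the spots, the brighter probe ran from -2.67 (second TBI array) to -1.71 (second sham array). By slide, the 14-base probe of miR-222 ran from -2.89 to -2.15 on slide 1 and from -2.05 to -1.72 on slide 2 without overlap, a difference of means of 0.53. For miR-221 the slides overlapped (-0.27 to 0.11 and -0.05 to 0.32), with a difference of 0.28. Of the 161 miRNAs with a probe well above background throughout, 11.2% were as fully apart by slide as miR-222, all of them higher on slide 2, and the median difference over all 161 was 0.11. Without scaling, with quantile normalisation, with the percentile over all probes and in the authors' table the slides overlapped for miR-222, at differences of 0.36 to 0.54. Within the PMI group, the only one on both slides, miR-222 stood at -2.65 and -2.23 on slide 1 and at -1.84 on slide 2, and miR-221 at -0.21, 0.06 and 0.23. For every other group slide and group cannot be told apart.

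The dim spots that recurred over arrays belonged to the 14-base probe of miR-222. On 4 arrays (the first naïve, the first sham, the second TBI and the second JM6), 3 of its 10 spots fell under 75% of the spot median, and they were the same 3 spots on each array. None was called an outlier. The lowest spot was at 52.2%, 41.5%, 34.9% and 31.8% of the median on these arrays in that order. The coefficient of variation (CV) over the spots of the probe was 24.8%, 29.3%, 31.9% and 33.8%, and between 1.51% and 7.28% on the other 12 arrays. All 4 arrays have 1 as the last digit of their position code, 2 on each slide, and no other array has it. On them 12 to 16 of the 284 probes had a spot CV over 20%, against 0 to 6 on the others. The 13-base probe had no spot under 75% of its median on any array. With the median of the spots in place of the mean, miR-222 became -2.46 on the first naïve, -1.86 on the first sham, -2.67 on the second TBI and -1.82 on the second JM6 array, and the slides still did not overlap.

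**Figure D2:**
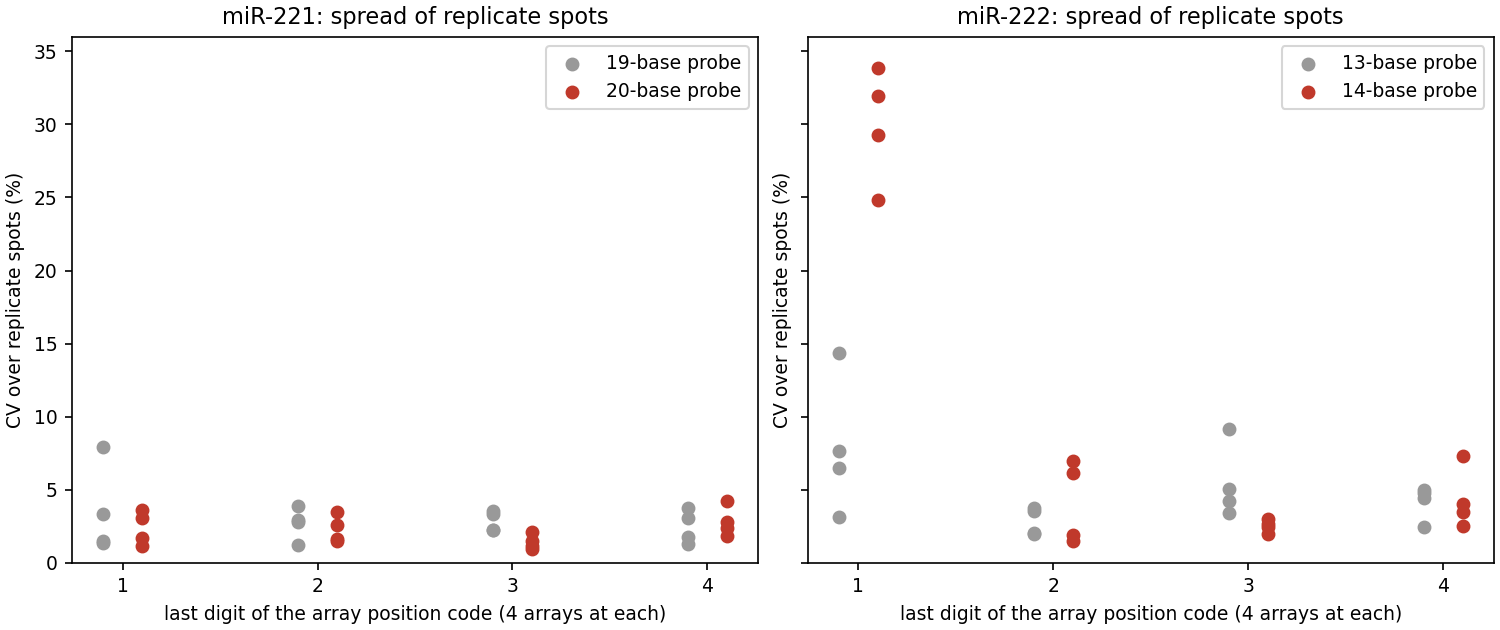
Coefficient of variation (%) over the replicate spots of each miR-221 probe (left) and miR-222 probe (right), against the last digit of the array's position code, with 1 point an array and 4 arrays at each digit. The 14-base probe of miR-222 lies between 24.8% and 33.8% at digit 1 and at most at 7.28% elsewhere.

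The first comparison asked whether the cluster differed between naïve and injured hippocampus. Neither miRNA passed the test. miR-221 was 0.08 higher in TBI on the log2 scale (SE 0.14, 95% interval -0.26 to 0.41, limma adjusted p = 0.78), a fold of 1.05 with an interval from 0.84 to 1.33. miR-222 was 0.12 lower (difference -0.12, SE 0.20, interval -0.60 to 0.36, adjusted p = 0.76), a fold of 0.92 with an interval from 0.66 to 1.28. With 3 arrays a group, a change in either direction within these unadjusted intervals remains possible. They are not limits of detection, since miR-21, at a difference of 1.37, did not pass either (limma adjusted p = 0.14). Of the 171 miRNAs tested, 0% passed, with 38 at an unadjusted p under 0.05 and a smallest adjusted p of 0.14, and the median difference over all was -0.05. Groups not overlapping were found for 28.7% of the tested miRNAs and for 0 of the 2 members. On the same values the methods' t-test called 25 miRNAs at a fold over 1.2 and an unadjusted p under 0.05 and neither member, and 0 after Benjamini-Hochberg adjustment. The sign of the miR-222 difference hung on 1 array: without the second TBI array it was 0.09. That array carries the dim spots, but so does the first naïve array, so both groups hold them. The dimmer probe of miR-222, which had no such spots on these arrays, also gave a negative difference with all arrays (-0.087). In this bulk tissue, fewer cells of a type and less RNA per cell cannot be told apart.

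With PMI, miR-221 lay 0.01 above naïve (SE 0.16, interval -0.36 to 0.39, limma adjusted p = 0.95) and 0.06 below TBI (difference -0.06, SE 0.16, interval -0.44 to 0.32, adjusted p = 0.97). miR-222 differed from naïve by -0.09 (SE 0.24, interval -0.64 to 0.46, adjusted p = 0.87) and from TBI by 0.03 (SE 0.24, interval -0.53 to 0.58, adjusted p = 0.97). None of these passed the threshold, and their intervals are the widest of the 6 comparisons. Against naïve 15 of 178 miRNAs passed, 8.43% (0 to 5 miRNAs when any 1 naïve or PMI array was left out), all of them lower in PMI (7 higher and 0 lower without scaling, 7 and 3 in the authors' table), with a median of -0.12 over all, and against TBI 0 of 176 did (12 at an unadjusted p under 0.05). The groups did not overlap for 39.9% and 21.6% of the miRNAs tested in these comparisons and for neither member. The PMI, TBI and naïve comparisons of slide 1 share arrays and are not independent.

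On slide 2, miR-221 was 0.03 higher with JM6 than in sham (SE 0.10, interval -0.22 to 0.28, limma adjusted p = 0.91), and miR-222 by 0.00068 (SE 0.14, interval -0.34 to 0.34, adjusted p = 1). With E33, miR-221 differed from sham by -0.15 (SE 0.11, interval -0.43 to 0.12, adjusted p = 0.48) and miR-222 by 0.03 (SE 0.15, interval -0.35 to 0.41, adjusted p = 0.92). No member passed. In these comparisons 5.33% of 225 miRNAs passed with JM6, all higher, and 3.98% of 226 with E33, 8 higher and 1 lower (4 and 2 with the percentile over all probes, 5 and 2 with quantile normalisation, 0 and 2 without scaling, 8 and 3 in the authors' table). The groups did not overlap for 31.1% and 61.1% of the tested miRNAs and again for neither member, by its brighter probe. With the dimmer probe of miR-221, JM6 and sham did not overlap, at a difference of 0.07 (SE 0.10). It did not pass (limma adjusted p = 0.82, every probe as a row). E33 and sham overlapped with that probe, and the groups of both comparisons overlapped with the dimmer probe of miR-222. Because no untreated TBI array was on slide 2, injury and compound cannot be told apart there. Both comparisons share the sham arrays.

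JM6 and E33 are code names, and their structures are not described in the sources used here, nor are their doses, so that matched dosing is not known. miR-221 was 0.18 higher with JM6 than with E33 (SE 0.10, interval -0.07 to 0.43, limma adjusted p = 0.94), and 80.9% of the 230 miRNAs tested differed by less. The second E33 array, at -0.05, carried it: without that array the difference was 0.04. miR-222 differed by -0.03 (SE 0.14, interval -0.38 to 0.32, adjusted p = 0.99). Of all miRNAs 0% passed, 7 had an unadjusted p under 0.05, and 12.2% did not overlap, neither member among them. The compounds were thus not distinguished by either miRNA, within intervals that allow folds of 0.96 to 1.35 for miR-221 and 0.77 to 1.25 for miR-222.

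**Figure D3:**
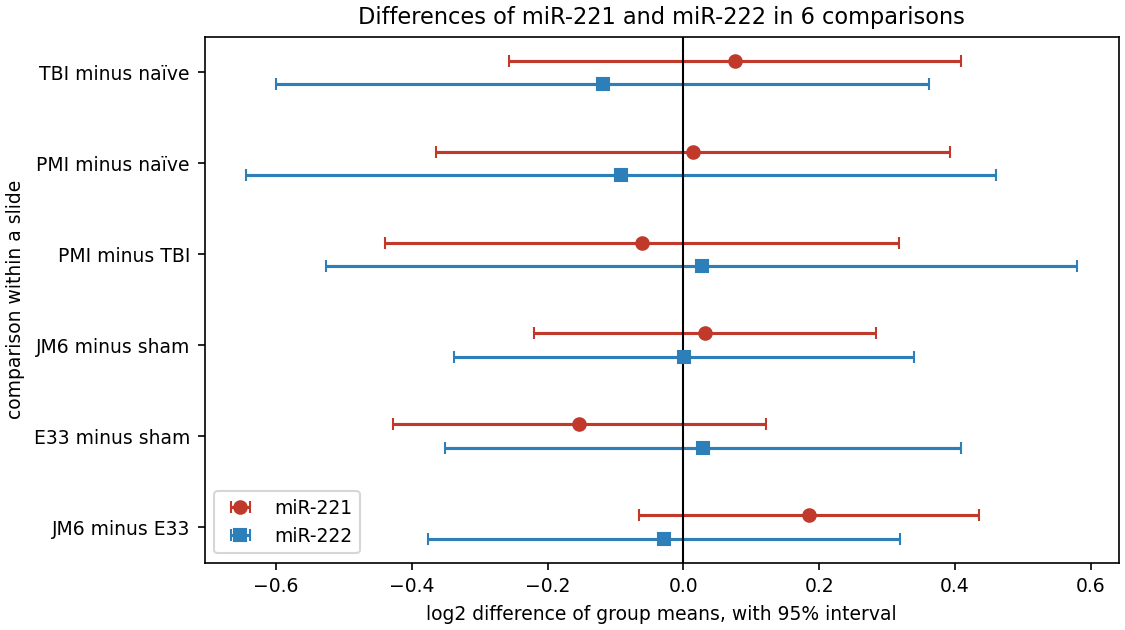
Log2 difference of group means (x axis) for miR-221 (circles) and miR-222 (squares) in the 6 comparisons made within a slide, with 95% intervals from limma. Every interval contains 0, and the point estimates lie between -0.15 and 0.18.

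The ratio of both miRNAs within an array does not depend on the scaling. Its level reflects the probes, so only its change between groups is read. The log2 signal of miR-222 minus that of miR-221 was -2.31, -2.20 and -2.26 in naïve, -2.27, -2.65 and -2.43 in TBI and -2.44 and -2.28 in PMI hippocampus of slide 1. On slide 2 it was -2.33 and -1.96 for sham, -2.06, -2.34 and -2.14 for JM6, -1.95 and -1.98 for E33, and -2.07 for PMI. The JM6 values all lay below the E33 values, and in the other comparisons the groups overlapped. The lowest values of TBI, sham, naïve and JM6 were on the arrays with the dim spots.

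The mean of this quantity was 0.19 lower in TBI than in naïve (difference -0.19, exact two-sided permutation p = 0.20). The other differences were -0.11 (PMI and naïve, p = 0.30), 0.09 (PMI and TBI, p = 0.70), -0.03 (JM6 and sham, p = 0.90), 0.18 (E33 and sham, p = 0.67) and -0.21 (JM6 and E33, p = 0.20), each by the same exact permutation test. After Benjamini-Hochberg adjustment over the 6, the smallest p was 0.60. With 3 arrays against 3 the smallest p such a test can give is 0.10, with 3 against 2 it is 0.10 and with 2 against 2 it is 0.33, so none could have passed 0.05. With the median of the spots, TBI minus naïve was -0.16, and JM6 minus E33 was -0.12.

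Across arrays the members moved together. After centring on each slide, the log2 signals of miR-221 and miR-222 correlated at r = 0.70 over 16 arrays (permutation p = 0.0084, with 1e+05 permutations within slides) and Spearman's rho was 0.69 (permutation p = 0.018), 1 relation having been tested. Without the 2 arrays farthest from the median of miR-221, the second E33 and the first naïve array, r was 0.71. The scaling factor of an array is common to both values. The permutations break this link as well, so their p does not show a relation particular to the pair. Within slide 1 r was 0.87 and within slide 2 it was 0.24 (8 arrays each). With the median of the spots r was 0.85 on slide 1 and 0.74 on slide 2, and with the second probe of each miRNA it was 0.86 and 0.70. The low value on slide 2 was thus seen only with the mean of the spots of the 14-base probe, among these 3 ways of summarising.

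**Figure D4:**
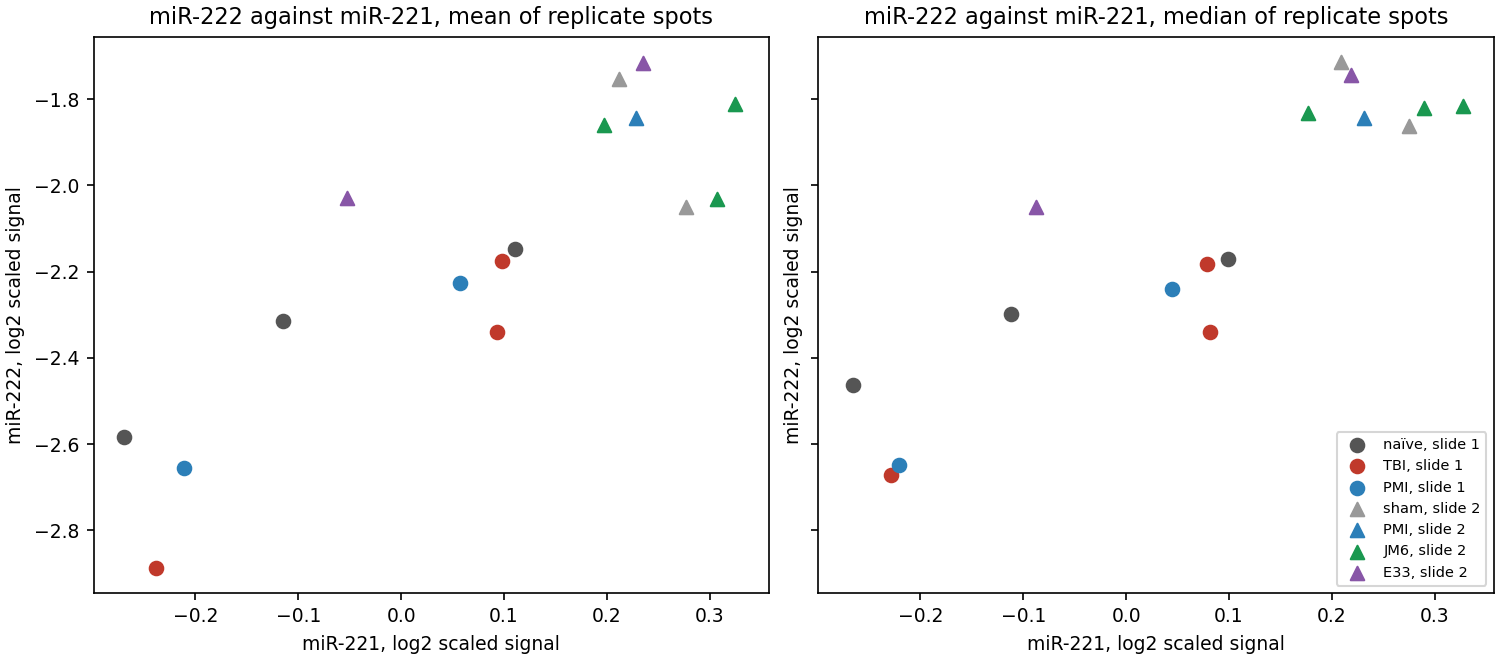
Log2 scaled signal of miR-222 (y axis) against miR-221 (x axis) on the 16 arrays, with spots summarised by their mean (left) or median (right). Colours are groups, circles slide 1 and triangles slide 2, and on slide 2 the correlation is 0.24 on the left and 0.74 on the right.

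With the mean of the spots, other miRNAs followed each member more closely than its partner did. Among the 160 others measured well above background on all arrays, the closest to miR-221, by Pearson's r of slide-centred values over 16 arrays, were miR-325-3p (0.86), miR-98 (0.85), miR-22 (0.78), miR-107 (0.78) and miR-138 (0.76), and miR-222 came 12th. The closest to miR-222 were miR-107 (0.93), miR-425 (0.82), miR-487b (0.82), miR-186 (0.80) and miR-103 (0.79), and miR-221 came 15th. The median over all 160 was 0.16 for miR-221 and 0.25 for miR-222. Between the members, r over the 16 arrays was 0.80 with the median of the spots and 0.81 with the second probes. Ranks were not taken with these summaries. The correlations share the arrays and their scaling and are given as a description.

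Other miRNAs that respond to injury and inflammation, or that mark vessels and leukocytes, give the setting. Of 6 injury and inflammation miRNAs, 5 were named on the array and tested in every comparison. Between TBI and naïve 0 of the 5 passed, all 5 had a higher mean in TBI, and their median was 0.08 beside -0.05 over all miRNAs. Their brightest member, miR-21, which is induced in reactive glia and many injured tissues, differed by 1.37 (SE 0.34, limma adjusted p = 0.14). Without the first TBI array it differed by 1.80 (adjusted p = 0.00094). Leaving out any other naïve or TBI array gave an adjusted p of 0.16 to 0.34. The activity-regulated miR-132 and miR-212 differed by 0.03 and 0.02. On slide 2, where injury and compound cannot be told apart, miR-21 was the 1 member of the list to pass. Against sham it was higher by 1.40 with JM6 (SE 0.08, adjusted p = 0.00037) and by 1.35 with E33 (SE 0.09, adjusted p = 0.0011). miR-132 and miR-212 differed there by 0.51 and -0.23 with JM6 and by 0.50 and -0.68 with E33. These calls of miR-21 held under 16 of 19 alternatives with JM6 and 15 of 19 with E33. In the same comparisons miR-221 and miR-222 differed from sham by -0.15 to 0.03.

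Of the 4 vessel wall miRNAs, 3 or 4 were tested and 0 passed in any comparison. Between TBI and naïve the endothelial miR-126 and its partner strand miR-126* differed by -0.21 and -0.24, and the median of the list was -0.24. The smooth muscle miR-143 differed by -0.60 (SE 0.45), which the second naïve array, at 1.44, carried: without it the difference was -0.014. On slide 2 the list's median was 0.06 with JM6 and 0.13 with E33 against sham, beside 0.02 and 0.04 over all miRNAs.

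Of the 4 leukocyte miRNAs, 2 were tested between TBI and naïve and neither passed. miR-142-3p, of all blood-derived leukocytes and microglia, differed by 0.89 (SE 0.35, limma adjusted p = 0.20). Without the first TBI array it differed by 1.30 (adjusted p = 0.022), and leaving out any other naïve or TBI array gave an adjusted p of 0.19 to 0.41. miR-150, of lymphocytes, differed by -0.20. With all arrays miR-223 did not meet the filter for testing. It was tested when the first TBI array (difference 3.14, limma adjusted p = 0.024) or the first naïve array (1.84, adjusted p = 0.37) was left out. The first TBI array had the fewest probes well above background (293) and the most spots left out as outliers (427). Against uninjured sham, 2 of 4 passed and were higher in the injured rats given each compound. Injury and compound cannot be told apart in these comparisons. The neutrophil and monocyte miRNA miR-223 was higher by 3.64 with JM6 (SE 0.33, adjusted p = 0.0025) and by 3.50 with E33 (SE 0.37, adjusted p = 0.0069), and miR-142-3p by 1.39 (SE 0.20, adjusted p = 0.016) and 1.27 (SE 0.22, adjusted p = 0.040). The calls of miR-223 held under 16 of 18 alternatives with JM6 and 12 of 18 with E33, where it was lost without the second E33 array. Those of miR-142-3p held under 10 and 7 of 19, and were lost without either sham array, without the second JM6 array and without either E33 array, with adjusted p up to 0.27 (JM6) and 0.46 (E33) over the alternatives. In the same RNA miR-221 and miR-222, which leukocytes also express, did not pass. The part of leukocyte RNA in their levels was not tested.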

How the data were processed

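The deposited scanner files hold, for each spot, an intensity whose background the authors' software, Agilent Feature Extraction 9.5.3.1, had subtracted. The authors' processed table, also intensity, was made in GeneSpring with a scaling not given in the sources used here, and served as an alternative. Replicate spots were averaged without outliers, and signals were divided by the 75th percentile (1945 to 4042) named in the text, held at a floor of -6.73 and put on the log2 scale. A miRNA was represented by its brightest probe and tested if 1 of the groups compared had it well above background throughout. Comparisons used limma 3.58.1 in R 4.3.3 (lmFit, eBayes, Benjamini-Hochberg adjusted p under 0.05 over all miRNAs tested): the 6 arrays for TBI and naïve, otherwise the 8 arrays of the slide. The fits were tested on simulated data. The number of arrays limits the precision. The design text states 3 sham and 3 E33 samples, and 2 of each were analysed here.

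The members, the lists of miRNAs and the tests were chosen with earlier results of these data known. Named were both members with every probe, the 5 miRNAs most like each, and the 3 brightest tested of each list. Alternatives were normexp (offset 50), other scalings, signals summed over probes, the authors' table, other filters, other arrays in the fit, every probe as a row, a replicate block and leaving out each array. The median of the spots, the second probe in the fit, a crossed block and miR-143 without each array were added after the data were seen.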

Additional observations from a re-analysis of the deposited data

How the results depend on the processing

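Neither miR-221 nor miR-222 passed the threshold in any comparison under any of the 246 values that the alternatives gave, with a lowest adjusted p of 0.16 (limma). The signs of differences this small were not stable: 50 of the 246 turned, and the cause was not tested. Without scaling, miR-221 became -0.025 (TBI minus naïve), 0.32 (PMI minus TBI) and -0.19 (JM6 minus sham), and kept its sign at 0.29 (PMI minus naïve), -0.65 (E33 minus sham) and 0.46 (JM6 minus E33). In the same setting miR-222 kept its sign at 0.41 (PMI minus TBI) and became 0.19 (PMI minus naïve), -0.22 (JM6 minus sham), -0.47 (E33 minus sham) and 0.25 (JM6 minus E33). With the percentile over all probes, miR-222 was 0.070 against naïve with PMI and -0.072 and -0.053 against sham with JM6 and E33, and miR-221 was 0.029 (PMI minus TBI) and -0.041 (JM6 minus sham). In the authors' table the same 5 differences, in that order, were 0.068, -0.13, -0.11, 0.037 and -0.10. Quantile normalisation gave miR-222 at -0.015 (JM6) and -0.0058 (E33) against sham. Summed probes gave miR-222 at 0.0049 (PMI minus naïve) and 0.0083 (JM6 minus E33) and miR-221 at 0.0079 (PMI minus TBI). With all 16 arrays and no slide term, miR-222 was 0.11 (PMI minus naïve) and miR-221 0.040 (PMI minus TBI), and normexp gave miR-222 at 0.087 (JM6 minus E33). With the median of the spots, chosen after seeing the data, miR-222 was -0.046 (PMI minus TBI), -0.034 (JM6 minus sham), -0.11 (E33 minus sham) and 0.075 (JM6 minus E33). Its second probe, also chosen then, gave -0.082 (PMI minus TBI) and 0.048 (JM6 minus E33). For miR-222 minus miR-221 within an array, PMI minus TBI was -0.037 with the second probes and JM6 minus sham was 0.11 with normexp.

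Leaving out each array in turn gave miR-221 ranges of -0.014 to 0.19 (TBI minus naïve), -0.12 to 0.15 (PMI minus naïve), -0.20 to 0.073 (PMI minus TBI), -0.00096 to 0.071 (JM6 minus sham), -0.30 to -0.0089 (E33 minus sham) and 0.041 to 0.33 (JM6 minus E33). For miR-222 they were -0.27 to 0.091, -0.31 to 0.12, -0.19 to 0.24, -0.15 to 0.15, -0.13 to 0.19 and -0.18 to 0.13, and for the difference within an array -0.28 to -0.096, -0.19 to -0.026, -0.010 to 0.18, -0.21 to 0.15, 0.0011 to 0.36 and -0.27 to -0.13. An array left alone in its group was assumed to vary like the others.

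The count of all miRNAs passing was 0, 15, 0, 12, 9 and 0 in the same order of comparisons. Leaving out arrays gave 0 to 9, 0 to 5, 0 to 3, 4 to 15, 2 to 13 and 0 to 2. For TBI minus naïve it was 1 with normexp, 1 without scaling, 7 in the authors' table, 5 with all 16 arrays and the slide and 25 by the methods' t-test unadjusted. For PMI minus naïve it was 0 with normexp, the percentile over all probes, quantile normalisation or summed probes, 1 without a filter, 7 without scaling, 5 with only both groups' arrays, and 35 and 31 with all 16 arrays with and without the slide. For PMI minus TBI it was 3 without scaling. For JM6 minus sham it was 2 with normexp, 6 with the percentile over all probes, 7 with quantile normalisation, 1 without scaling, 6 without a filter, 0 with all 16 arrays either way, 23 with every probe as a row and 5 with only both groups' arrays. For E33 minus sham it was 1 with normexp, 2 without scaling, 16 with summed probes, 3 and 0 with all 16 arrays with and without the slide, and 15 with every probe as a row. For JM6 minus E33 it was 1 without a filter.

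Arrays were not paired by replicate number in the main tests. Deviations of same-numbered arrays correlated from -0.32 to 0.47, highest for PMI and TBI at 0.47 and 0.38. No TBI array correlated best with its own number in naïve, and the best match was not sought in other comparisons. A replicate block gave miR-221 at 0.016 (PMI minus TBI), miR-222 at -0.044 (JM6 minus sham) and 0, 11, 0, 8, 5 and 0 miRNAs passing. Crossed numbers for E33 and sham, fitted to those 4 arrays, gave 0. The number of arrays, 2 or 3 a group, limits the precision. All 4 probes were well above background on every array.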
